A study of Mus musculus with 14 samples.

Results

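Mouse oligodendrocyte precursor cells (OPCs) that received a small interfering RNA (siRNA) against Pdgfra and were kept for 3 days under differentiation conditions (siPdgfra, Day3) were compared with undifferentiated OPCs (Day0), to ask which parts of oligodendrocyte (OL) differentiation took place after the knockdown. The members were 4 of the 14 mRNA-seq libraries of the series, 2 of siPdgfra and 2 of Day0, chosen by their labels. All cells were primary OPCs of C57BL/6J pups, pooled from several pups per preparation and picked from the cortex with an antibody against the PDGFRα protein, and the study describes the 2 replicates as independent cultures. Day0 cells are labelled as wild type and had received no siRNA and no transfection reagent. The siPdgfra cells were wild-type cells in which the mRNA was lowered by transfection, not by a change of the gene, and their label reads Pdgfra knockdown. Beside them stood 4 Day3 control groups of 2 libraries each, namely non-treated cells, cells given the transfection reagent alone (mock) and cells given the non-targeting siRNAs NC siRNA #1 or NC siRNA #2.

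The step from Day0 to siPdgfra Day3 combined the 3 days, the transfection, the siRNA and a change of medium. By the study's methods that change was the removal of the growth factor PDGF-AA with addition of the thyroid hormone T3. The growth protocol in the labels differs from the medium of the methods, and the methods are followed here. The study's methods give a single sequencing instrument for the knockdown series, which holds these Day0 libraries too, and the labels name no instrument per library. The sequence of the Pdgfra siRNA is not given in the sources used here, and a single siRNA label was present. In RNA from whole cultures, fewer cells of a type and less RNA per cell cannot be told apart.

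Expression was given as FPKM, the fragments of a gene scaled to its exon length and to the depth of the library. Of 23427 genes, 11370 had at least 1 FPKM in 2 or more of the 4 libraries and were tested. A gene was called when it differed by at least 2-fold on the log2(FPKM + 1) scale with an adjusted p under 0.05 (limma). Fold changes below are on that scale, which understates the change of genes with low values, and each ± beside one is its standard error. Depth, estimated from the steps between low values, was about 31621121 and 22496467 fragments in the Day0 libraries and 21401420 and 19985146 fragments in siPdgfra. Replicates differed on the log2 scale with an SD over genes of 0.17 in Day0 and 0.20 in siPdgfra, and the non-treated pair stood apart with 0.46.

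Of the genes tested, 3290 were called between siPdgfra and Day0, which is 28.9%, with 1644 higher (14.5%) and 1646 lower (14.5%) in siPdgfra. Over all genes tested the median was -0.02 on the log2 scale. The control groups, set against the same Day0 libraries, had 3060 (26.9%, non-treated), 3007 (26.4%, mock), 3379 (29.7%, NC siRNA #1) and 3257 genes called (28.6%, NC siRNA #2). Because Day0 is shared by these comparisons, whether siPdgfra differed from a control was tested directly at Day3, where Day0 cancels. There siPdgfra had 1220 calls beside non-treated cells (10.7%), 1030 beside mock (9.06%), 1079 beside NC siRNA #1 (9.49%) and 1134 beside NC siRNA #2 (9.97%), and 400 genes were called in 1 direction against all 4 (3.52%), of which 206 were higher (1.81%) and 194 lower (1.71%). That split became 150 higher to 257 lower under median-ratio scaling and 156 to 240 when libraries were scaled by their upper quartile. As deposited, the median of all genes was 0.11 on the log2 scale for siPdgfra minus the mean of the controls, against 0.01 and 0.02 with these scalings.

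PDGF receptor alpha, encoded by Pdgfra, binds PDGF-AA and keeps OPCs dividing through the ERK kinase pathway. When PDGF-AA is withdrawn and thyroid hormone is added, precursors leave the cell cycle, pass through a committed, premyelinating stage marked by genes such as Enpp6 and Gpr17, and then make the proteins and lipids of myelin. Cell division genes are known to be switched by CCAAT boxes, by the cell cycle genes homology region (CHR, TTTGAA) and by E2F sites near their start.

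Pdgfra itself was the gene with the largest fall of all those named here. It had 409 and 436 FPKM at Day0 and 3.30 and 2.69 FPKM in siPdgfra (log2 fold change -6.73 ± 0.10, limma, adjusted p = 5.04e-12), and the control groups had means of 32.5 to 67.4 FPKM. Every control library lay below Day0 and above siPdgfra, so the level in siPdgfra combined a fall that control cells also had with a further log2 difference of -3.68 ± 0.08 from the mean of the controls. Of the other PDGF ligands and receptors, Pdgfa, a ligand of the receptor, was called higher with 5.56 and 5.89 FPKM at Day0 and 28.9 and 29.2 FPKM in siPdgfra (log2 fold change 2.16 ± 0.25, limma, adjusted p = 1.53e-05), and Pdgfc was not called (log2 fold change 0.71 ± 0.10). Pdgfrb, which encodes the second PDGF receptor, was listed at 0 in all 4 libraries, and with Pdgfb, Pdgfd and Pdgfrl it was below the minimum for testing. Secisbp2l, an RNA-binding protein gene and the study's main target, rose from 30.4 and 31.5 FPKM at Day0 to 145 and 143 FPKM in siPdgfra (log2 fold change 2.18 ± 0.13, limma, adjusted p = 6.84e-08), with control means of 138 to 249.8 FPKM.

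**Figure D1:**
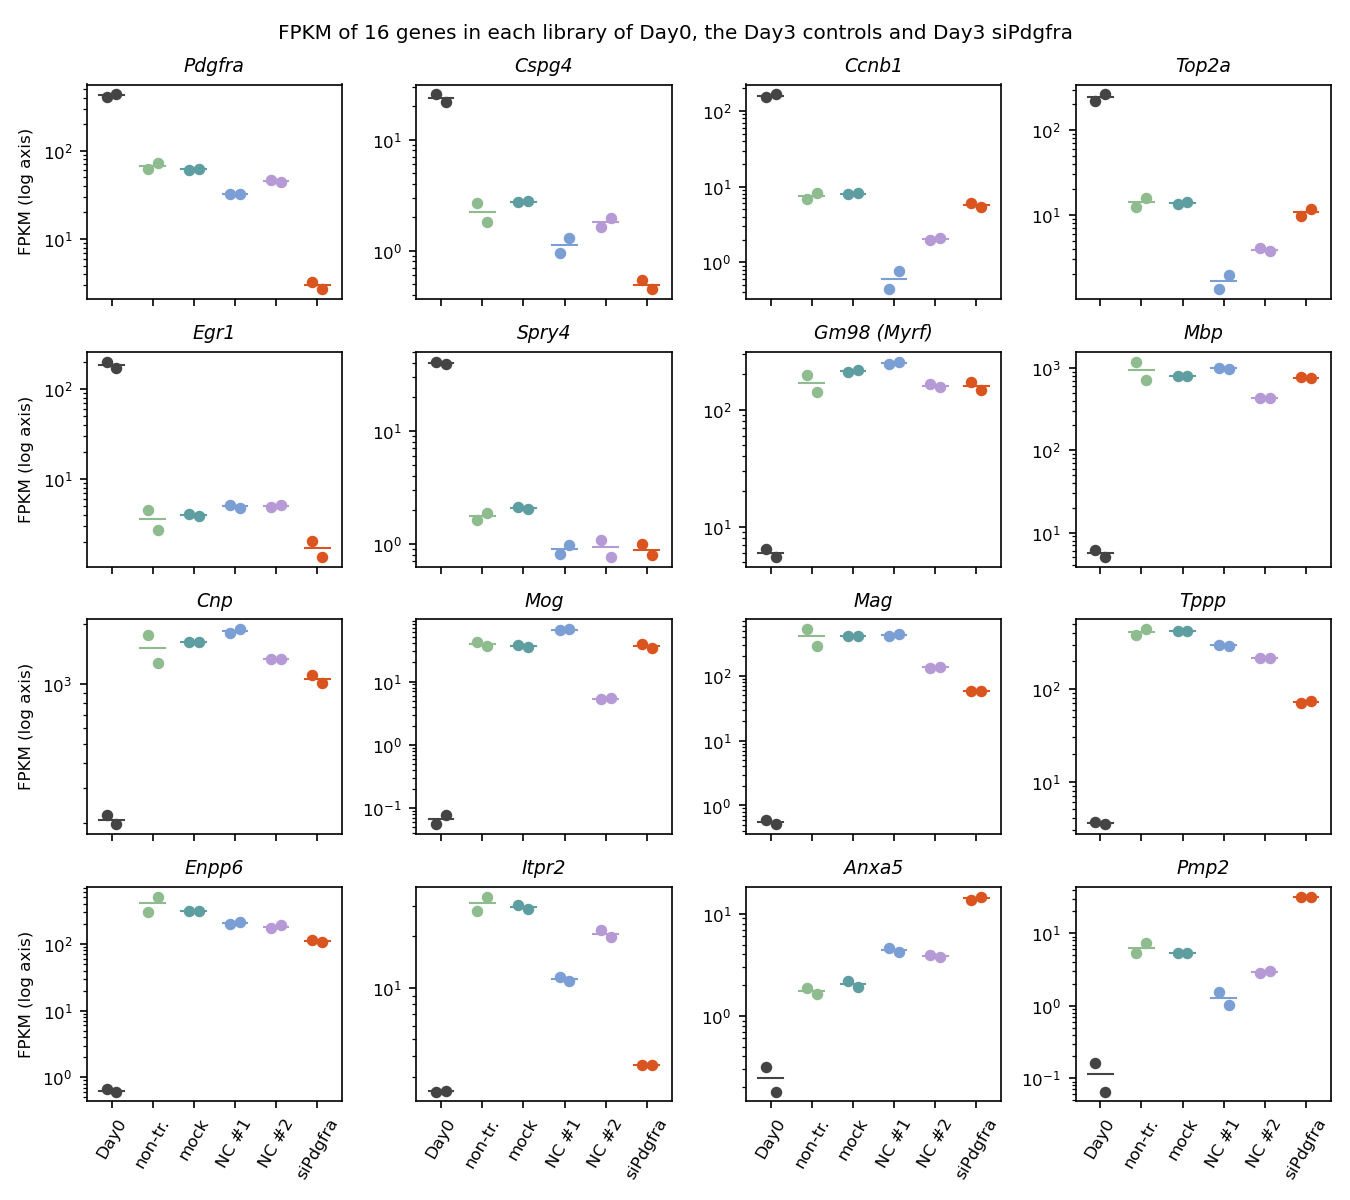
FPKM on log axes for 16 genes, each with its own scale, with 1 point per library, a line at each group's mean and the groups side by side. Pdgfra lies at 409 and 436 FPKM at Day0 and 3.30 and 2.69 FPKM in siPdgfra, below every control library, while Mbp lies at 6.13 and 5.09 FPKM at Day0 and 777 and 749.7 FPKM in siPdgfra.

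The precursor genes fell in part. Of the 21 OPC genes tested, out of 24 listed, 9 fell (42.9%), 1 rose (4.76%) and 11 were not called. Over all genes 14.5% were called in each direction. The median log2 fold change of the list was -0.67. Summed over the 24, Pdgfra included, the level was 1604.6 and 1596.4 FPKM at Day0 and 764.6 and 697.4 FPKM in siPdgfra. The control libraries had 1057.6 to 1489.1 FPKM. Those that fell included Cspg4, which encodes the NG2 proteoglycan (25.6 and 21.8 FPKM at Day0 and 0.540 and 0.448 FPKM in siPdgfra, log2 fold change -4.04 ± 0.14), the phosphatase gene Ptprz1 (232 and 251 FPKM at Day0 and 57.5 and 53.7 FPKM in siPdgfra, -2.10 ± 0.15), Xylt1, an enzyme gene of proteoglycan synthesis (50.5 and 50.5 FPKM at Day0 and 5.46 and 5.54 FPKM in siPdgfra, -2.99 ± 0.09) and the protocadherin gene Pcdh15 (34.6 and 38.2 FPKM at Day0 and 2.56 and 2.90 FPKM in siPdgfra, -3.32 ± 0.14). In each of these the 2 siPdgfra libraries lay below both Day0 libraries. The matrix proteoglycan genes Vcan (15.0 and 17.5 FPKM at Day0 and 19.8 and 19.8 FPKM in siPdgfra) and Bcan (73.2 and 53.9 FPKM at Day0 and 59.02 and 53.4 FPKM in siPdgfra) were not called, and Bcan had control means of 104.6 to 238 FPKM. The sialidase gene Neu4 was the one that rose (0.702 and 0.562 FPKM at Day0 and 5.72 and 6.09 FPKM in siPdgfra, log2 fold change 2.08 ± 0.12). Besides Pdgfra, Lhfpl3 was lower than all 4 controls: it had 70.7 and 73.7 FPKM at Day0 and 48.5 and 41.8 FPKM in siPdgfra, a fold change of -0.67 that was not called, beside control means of 137 to 222 FPKM. Emid1, Susd5 and Sox5 were below the minimum. In the control groups the medians of the same 21 genes were -0.45 (non-treated), -0.61 (mock), -0.78 (NC siRNA #1) and -0.47 (NC siRNA #2). Genes high in the controls alone are not among those tested, here and in every control median given.

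The genes of cell division fell almost without exception, and 4 of them were among the 10 genes with the largest falls. Their promoters are shown because these genes moved together, and that of Mcm5, which had the largest fall among replication genes whose promoter holds the E2F letters, is added for contrast. The sequences are RefSeq promoters of GRCm38.p6, 250 bases before to 50 bases after the start, read 5′ to 3′ along the gene, with capitals marking the CCAAT box, the CHR letters TTTGAA and the E2F letters TTTGGCGC or TTTCGCGC on either strand, where adjoining matches run together.
Ccnb1 (chr13:100786437-100786736, minus strand): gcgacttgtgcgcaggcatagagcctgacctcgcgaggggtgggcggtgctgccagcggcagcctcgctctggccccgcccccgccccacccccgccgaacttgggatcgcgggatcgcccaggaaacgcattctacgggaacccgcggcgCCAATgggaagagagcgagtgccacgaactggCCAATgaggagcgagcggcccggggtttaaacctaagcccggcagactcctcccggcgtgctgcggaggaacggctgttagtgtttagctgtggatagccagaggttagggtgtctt
Rrm2 (chr12:24708004-24708303, plus strand): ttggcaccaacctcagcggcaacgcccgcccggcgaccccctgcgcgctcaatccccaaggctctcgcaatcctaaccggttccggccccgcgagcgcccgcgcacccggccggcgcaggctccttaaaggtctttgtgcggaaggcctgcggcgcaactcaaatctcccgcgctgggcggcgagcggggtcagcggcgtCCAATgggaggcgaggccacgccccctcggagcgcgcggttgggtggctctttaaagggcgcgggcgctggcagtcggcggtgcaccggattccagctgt
Ube2c (chr2:164769679-164769978, plus strand): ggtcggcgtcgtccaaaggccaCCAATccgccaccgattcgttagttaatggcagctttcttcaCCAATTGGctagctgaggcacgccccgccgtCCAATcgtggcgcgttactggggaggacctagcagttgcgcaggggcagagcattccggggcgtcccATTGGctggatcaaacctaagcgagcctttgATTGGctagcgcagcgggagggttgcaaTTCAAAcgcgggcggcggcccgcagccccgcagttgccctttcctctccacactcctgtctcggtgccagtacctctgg
Top2a (chr11:99024140-99024439, minus strand): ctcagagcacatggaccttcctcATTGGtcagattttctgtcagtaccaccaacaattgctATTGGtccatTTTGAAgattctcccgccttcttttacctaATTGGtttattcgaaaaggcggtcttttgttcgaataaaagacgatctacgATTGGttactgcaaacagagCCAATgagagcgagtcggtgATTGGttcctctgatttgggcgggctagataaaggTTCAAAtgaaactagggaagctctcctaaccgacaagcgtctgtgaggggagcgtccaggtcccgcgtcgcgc
Mcm5 (chr8:75109259-75109558, plus strand): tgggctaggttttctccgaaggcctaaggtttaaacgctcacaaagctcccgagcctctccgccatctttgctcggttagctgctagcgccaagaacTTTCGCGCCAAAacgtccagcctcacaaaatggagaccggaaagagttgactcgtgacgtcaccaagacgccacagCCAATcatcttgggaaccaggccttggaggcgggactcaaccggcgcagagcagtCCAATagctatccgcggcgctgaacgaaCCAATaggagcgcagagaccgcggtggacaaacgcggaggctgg

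These promoters differed in the motifs they held. CCAAT was present in all 5, and Top2a and Ube2c each had 6 of them on either strand. The CHR letters lay 29 bases before the start in Ube2c and 23 bases before it in Top2a, where another copy began 179 bases before it, and were not in the windows of Ccnb1, Rrm2 and Mcm5. The E2F letters were in Mcm5 alone, in overlapping matches on both strands from 153 bases before the start. Over the 33 promoters found for 31 of the 35 mitosis genes, 78.8% held CCAAT, 75.8% CHR and 3.03% E2F. Over the 34 promoters found for 29 of the 35 replication genes, 58.8% held CCAAT, 11.8% CHR and 29.4% E2F. Among all 32851 promoters of the same length the shares were 37.4%, 17.9% and 0.813%. A match describes the letters in the window and was not tested as a site.

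Of the 35 mitosis genes, 34 fell and 1 was not called, with a median log2 fold change of -3.70, and of the 35 DNA replication genes 34 fell and 1 was not called, with a median of -2.93. In each list 97.1% fell, beside 14.5% of all genes. Ccnb1, the mitotic cyclin B1, went from 153 and 167 FPKM at Day0 to 6.09 and 5.42 FPKM in siPdgfra (log2 fold change -4.57 ± 0.13, limma, adjusted p = 2.09e-10). Top2a, the topoisomerase that untangles chromosomes, had 219.5 and 264 FPKM at Day0 and 9.65 and 11.8 FPKM in siPdgfra. Ube2c, which helps to degrade mitotic cyclins, had 225 and 201 FPKM at Day0 and 10.3 and 8.22 FPKM in siPdgfra. Rrm2, a subunit of ribonucleotide reductase, had 165 and 155 FPKM at Day0 and 6.69 and 6.49 FPKM in siPdgfra. Mcm5, of the replicative helicase, had 76.4 and 71.4 FPKM at Day0 and 4.82 and 5.41 FPKM in siPdgfra. Mki67, a marker of dividing cells, had 99.6 and 122 FPKM at Day0 and 4.66 and 5.31 FPKM in siPdgfra. In all of these the siPdgfra libraries lay far under both Day0 libraries, but none of these genes reached 0. The control groups differed for Ccnb1, with means of 7.56 and 8.07 FPKM in non-treated and mock and of 0.604 and 2.05 FPKM in NC siRNA #1 and NC siRNA #2. It was called higher in siPdgfra than in both NC groups and not called against the others. Of the 35 mitosis genes, 28 were called higher in siPdgfra than in NC siRNA #1 (5.22% of all genes) and 20 higher than in NC siRNA #2 (5.23%), with median log2 differences of 1.33 and 1.08. Against non-treated (6.31%) and mock (4.85%) 1 was called higher each, with medians of -0.01 and -0.04. Of the 35 replication genes, 9 were called higher than in NC siRNA #1 and 5 higher than in NC siRNA #2, with none against the other controls. No gene of either list was called lower than a control group, against shares of all genes of 4.42% (non-treated), 4.2% (mock), 4.27% (NC siRNA #1) and 4.74% (NC siRNA #2). None was called higher than all 4, against 1.81% of all genes. The exceptions to the fall were Gins4, a replication factor gene (32.0 and 34.0 FPKM at Day0 and 18.2 and 25.7 FPKM in siPdgfra, log2 fold change -0.59 ± 0.15), and Anln, which encodes a cytokinesis protein (23.6 and 24.2 FPKM at Day0 and 11.7 and 12.03 FPKM in siPdgfra, log2 fold change -0.95 ± 0.14). For Anln siPdgfra was also higher than 3 of the 4 controls.

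Around the entry into the cycle, 9 of 17 tested genes of G1 cyclins and cyclin-dependent kinase (CDK) inhibitors fell (52.9%), 2 rose (11.8%) and 6 were not called. Their median was -1.32, and over all genes 14.5% were called in each direction. Ccnd1, the cyclin D1 that growth factors induce, fell from 329 and 304 to 18.8 and 18.8 FPKM (log2 fold change -3.999 ± 0.09, limma, adjusted p = 5.17e-11). The 2 that rose were Ccnd3, cyclin D3, with 53.9 and 41.0 FPKM at Day0 and 208 and 174 FPKM in siPdgfra, and the CDK inhibitor gene Cdkn1a, with 10.5 and 10.0 FPKM at Day0 and 59.05 and 50.6 FPKM in siPdgfra. Ccnd3 in siPdgfra was higher than in 3 of the 4 control groups, whose means were 54.6 to 120.1 FPKM, and was not called against NC siRNA #2. Cdkn1b, which encodes the inhibitor p27, had 54.5 and 48.6 FPKM at Day0 and 65.2 and 61.7 FPKM in siPdgfra and was not called. Ccnd2, Cdk6, Cdkn1c and Cdkn2b were below the minimum.

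Genes that report ERK signalling fell. Of 17 tested feedback genes of the pathway, 12 fell (70.6%), 3 rose (17.6%) and 2 were not called, where 14.5% of all genes were called in each direction. The median was -1.36 in siPdgfra and -1.60 to -1.91 in the controls. Spry4, a feedback inhibitor, had 41.1 and 39.2 FPKM at Day0 and 0.987 and 0.785 FPKM in siPdgfra (log2 fold change -4.45 ± 0.14, limma, adjusted p = 3.90e-10). The phosphatase gene Dusp6 had 37.6 and 35.2 FPKM at Day0 and 1.54 and 1.74 FPKM in siPdgfra and the transcription factor gene Etv5 had 97.1 and 86.5 FPKM at Day0 and 5.83 and 5.14 FPKM in siPdgfra, with log2 fold changes of -3.83 and -3.84. For all 3 genes the siPdgfra values were within the range that the control groups spanned or just under it, and none was called against any control. Dusp5, an ERK phosphatase of the nucleus, went the other way with 0.602 and 0.346 FPKM at Day0 and 5.22 and 4.16 FPKM in siPdgfra (log2 fold change 1.95 ± 0.23, limma, adjusted p = 1.74e-05) and was higher than all 4 controls, whose means were 0.691 to 1.37 FPKM. Lrig1 (log2 fold change 1.40 ± 0.10) and Lrig3 (1.88 ± 0.10), which encode proteins that damp growth factor receptors, also rose. Fosl1 and Ier3 were below the minimum.

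The immediate early genes split. Of 16 tested, 6 fell (37.5%), 2 rose (12.5%) and 8 were not called, with a median of -0.48, where 14.5% of all genes were called in each direction. Egr1, the fall second in size among the named genes, had 204 and 174 FPKM at Day0 and 2.05 and 1.35 FPKM in siPdgfra (log2 fold change -6.14 ± 0.18, limma, adjusted p = 2.85e-10). Its control means were also low, 3.58 to 4.98 FPKM. For Egr1 siPdgfra was called lower than NC siRNA #1 and NC siRNA #2 and not against non-treated or mock. Fos had 80.8 and 70.3 FPKM at Day0 and 59.9 and 51.7 FPKM in siPdgfra and Jun had 68.7 and 63.9 FPKM at Day0 and 62.9 and 67.7 FPKM in siPdgfra, neither of them called. Atf3 rose to 6.69 and 5.98 FPKM from 0.608 and 0.742 FPKM.

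**Figure D2:**
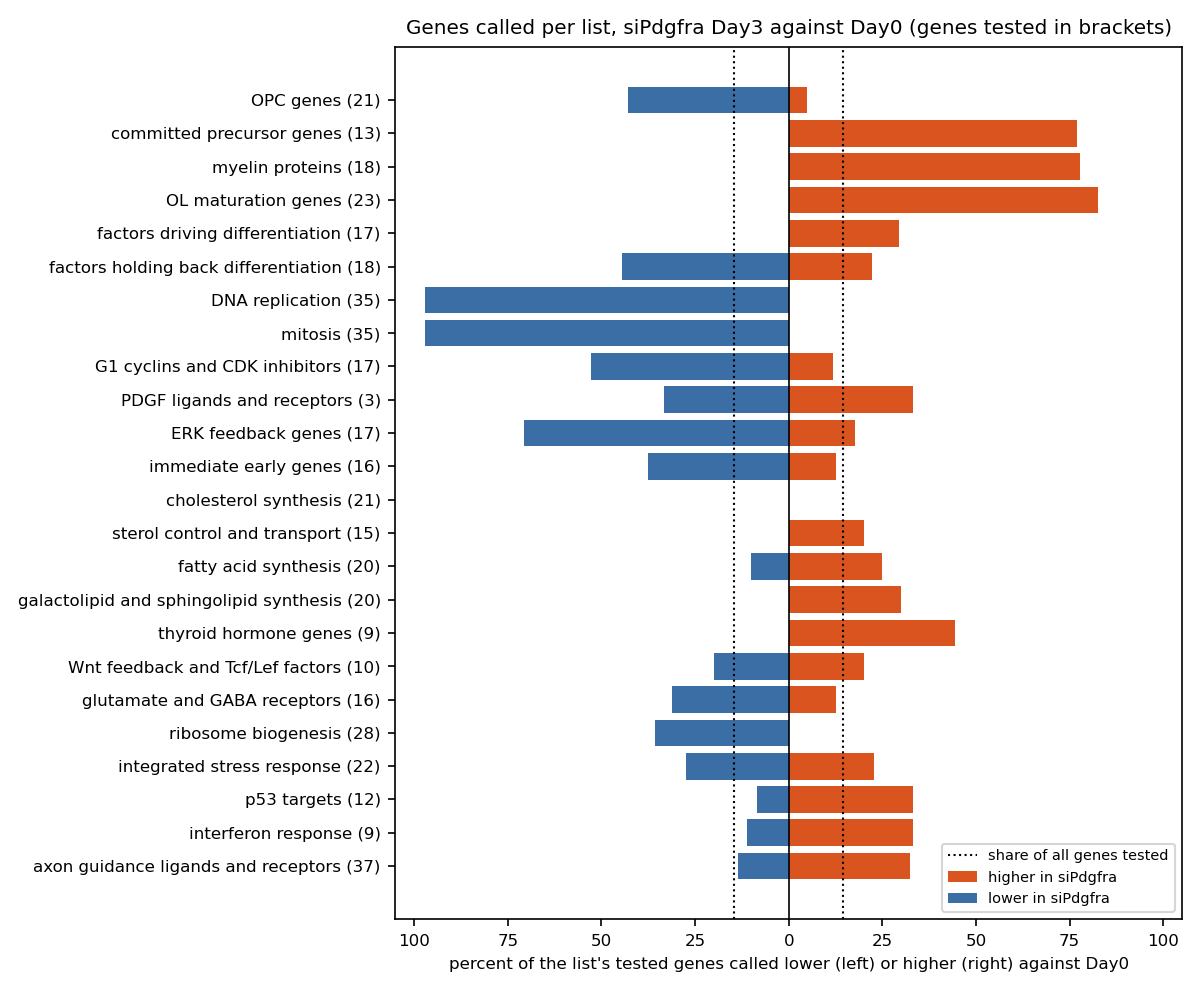
Percent of the tested genes of each list called lower (left, blue) or higher (right, orange) in siPdgfra against Day0, with the number tested in brackets and the shares over all genes, 14.5% in each direction, as dotted lines. The bars for DNA replication and mitosis, 34 of 35 genes each, reach furthest to the left and those of myelin and OL maturation genes furthest to the right, and cholesterol synthesis has no bar.

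The transcription factors of the lineage changed in part. Over all genes 14.5% were called in each direction. Among 17 tested factors known to drive differentiation, 5 rose (29.4%), none fell and 12 were not called. Their median log2 fold change was 0.02 and changed sign in 3 of 17 alternative settings. The myelin regulatory factor gene, listed under its older symbol Gm98 (Myrf), had 6.49 and 5.53 FPKM at Day0 and 171 and 146 FPKM in siPdgfra (log2 fold change 4.51 ± 0.16, limma, adjusted p = 8.09e-10), and the others that rose were Zfp536 (3.27 ± 0.09), Zfp488 (1.72 ± 0.09), Sox8 (1.53 ± 0.14) and Tcf7l2 (1.53 ± 0.09). Tcf7l2, a factor of the committed stage, had 9.04 and 7.62 FPKM at Day0 and 25.2 and 26.3 FPKM in siPdgfra beside control means of 47.9 to 59.96 FPKM, and siPdgfra was called lower than non-treated and mock. Sox10, the factor that OLs keep throughout, had 168 and 133 FPKM at Day0 and 249.7 and 202 FPKM in siPdgfra and was not called. Olig1 (1107 and 869 FPKM at Day0 and 523 and 479 FPKM in siPdgfra) and Olig2 (399 and 331 FPKM at Day0 and 189.8 and 173 FPKM in siPdgfra), which precursors and OLs both need, had log2 fold changes of -0.97 ± 0.23 and -1.0 ± 0.12, just under the fold threshold.

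Of 18 tested factors known to hold differentiation back, 8 fell (44.4%), 4 rose (22.2%) and 6 were not called, with a median of -0.83. Over all genes 14.5% were called in each direction. Sox9 fell from 29.1 and 25.2 to 2.99 and 3.61 FPKM, Sox11 from 83.1 and 78.2 to 13.5 and 13.6 FPKM and Id2 from 115 and 116 to 42.8 and 45.0 FPKM. The 4 that rose were Sox4 (63.2 and 53.6 FPKM at Day0 and 277 and 279.7 FPKM in siPdgfra, log2 fold change 2.24 ± 0.12), Id4 (1.51 ± 0.10), Hey1 (1.56 ± 0.10) and Hey2 (1.15 ± 0.15). Hes5, a target of Notch signalling, had 1.44 and 1.01 FPKM at Day0 and 2.97 and 1.81 FPKM in siPdgfra and was not called.

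The genes of myelin rose. Of 18 tested myelin protein genes, 14 rose (77.8%, beside 14.5% of all genes), none fell and 4 were not called. The median log2 fold change was 2.47. Without a minimum the median over all 21 listed was 2.10. Their summed level was 7788 and 6849 FPKM in siPdgfra, below every control library (9258 to 12381 FPKM), and 1749.1 and 1626 FPKM at Day0. The control medians of the 18 tested genes were 2.75 (non-treated), 2.85 (mock), 2.46 (NC siRNA #1) and 2.54 (NC siRNA #2). Mbp, myelin basic protein, had 6.13 and 5.09 FPKM at Day0 and 777 and 749.7 FPKM in siPdgfra (log2 fold change 6.86 ± 0.19, limma, adjusted p = 2.29e-10), beside control means of 435 to 988 FPKM. Cnp, an early enzyme of the myelin-forming cell, had 219 and 197 FPKM at Day0 and 1108 and 1015 FPKM in siPdgfra. Cnp was already above 100 FPKM in both Day0 libraries. Mog, a protein of the outer sheath that appears late, was near the floor at Day0 with 0.0556 and 0.0781 FPKM and had 39.6 and 33.4 FPKM in siPdgfra (log2 fold change 5.13 ± 0.10, limma, adjusted p = 2.96e-11). Its control groups differed widely, from 5.34 FPKM in NC siRNA #2 to 65.8 FPKM in NC siRNA #1, and siPdgfra was called higher than the first and not against the others. The 4 without a call were Cd9 (0.61 ± 0.12), Omg (-0.17 ± 0.14), Jam3 (-0.19 ± 0.10) and Gpm6b (-0.23 ± 0.20), each above 80 FPKM in all 4 libraries. Mal and Cntn2 were among those below the minimum.

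Only 1 myelin gene was called lower than all 4 control groups, as were 1.71% of all genes. Mag, the adhesion protein of the sheath layer next to the axon (chromosome 7, 30899183 to 30914832, minus strand, mm10), went from 0.586 and 0.513 FPKM at Day0 to 59.6 and 59.2 FPKM in siPdgfra (log2 fold change 5.28 ± 0.20, limma, adjusted p = 1.87e-09). Its control libraries ranged from 135 to 528 FPKM, with no overlap with siPdgfra. At Day3 the log2 difference from the mean of the controls was -2.38 ± 0.16 (limma, adjusted p = 5.97e-07), and siPdgfra held 17.0% of the mean FPKM of the controls. Gjb1, the connexin 32 gene, was on the other side with 3.95 and 3.62 FPKM at Day0 and 11.5 and 10.0 FPKM in siPdgfra (log2 fold change 1.30 ± 0.24, limma, adjusted p = 5.71e-04). It was higher than all 4 controls, whose means were 1.74 to 3.07 FPKM. Nfasc, a paranodal adhesion gene, rose to 139 and 138 FPKM (3.42 ± 0.09) and was called lower than 3 of the 4 controls.

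**Figure D3:**
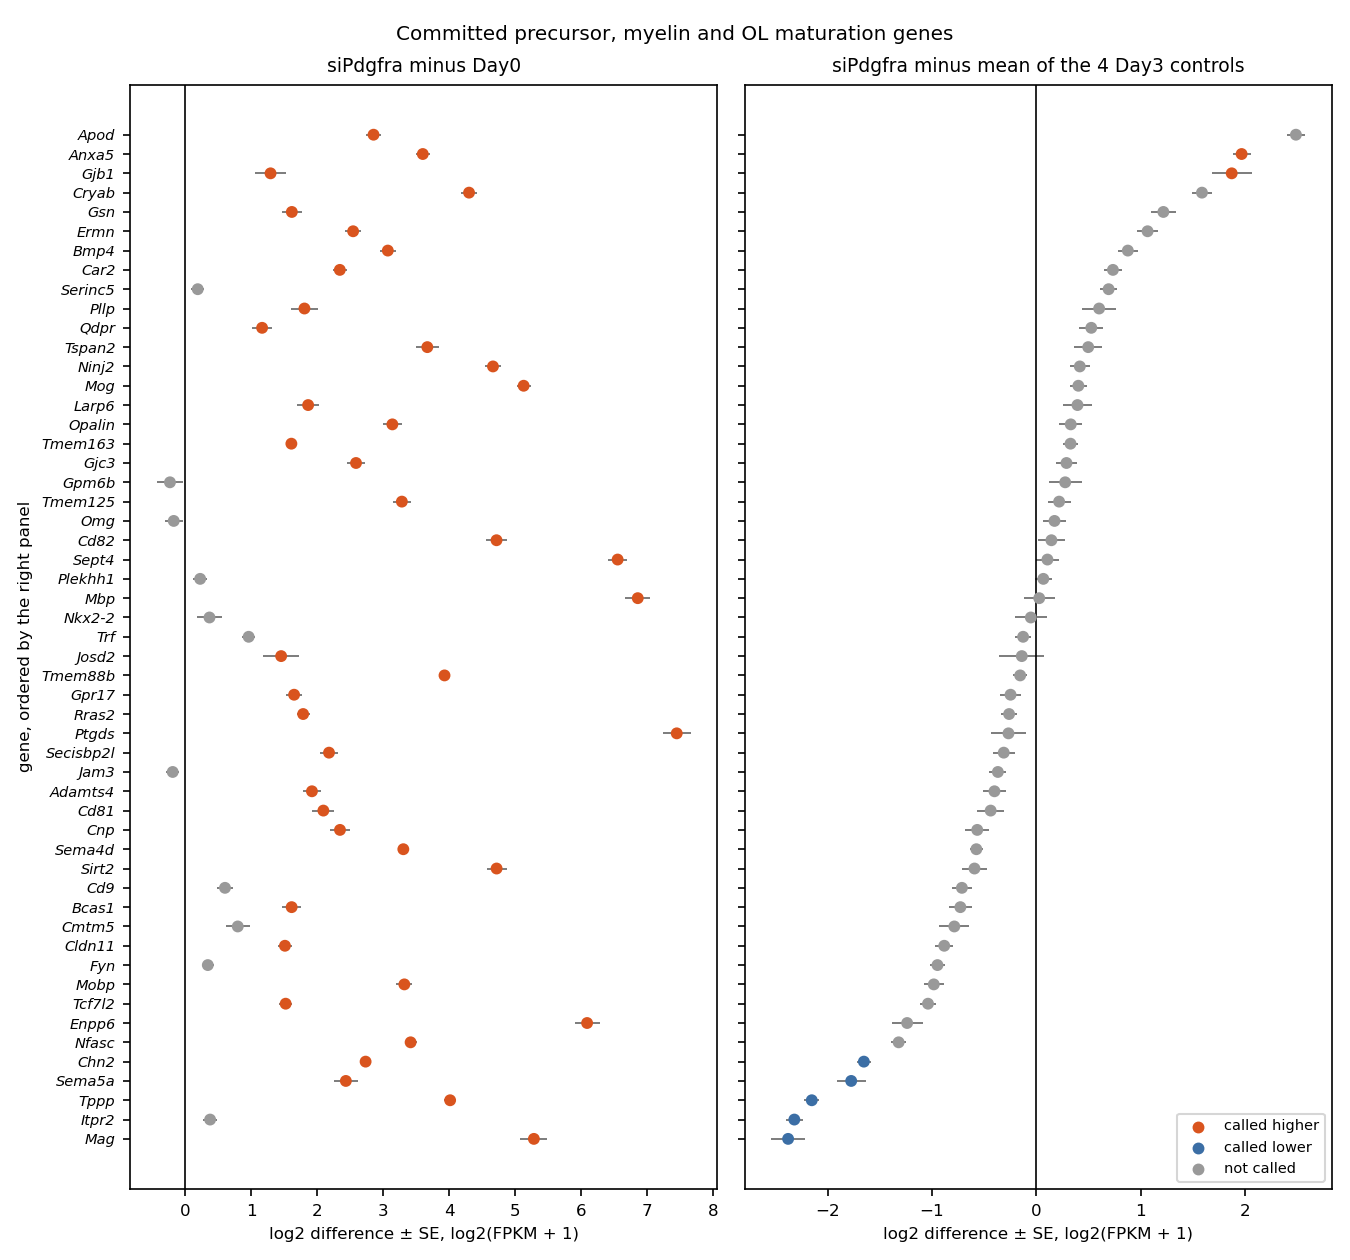
Log2 differences with standard error bars for the 53 committed precursor, myelin and OL maturation genes, siPdgfra minus Day0 on the left and siPdgfra minus the mean of the 4 Day3 controls on the right, ordered by the right. On the left 42 genes are called, all higher, and on the right Mag, Itpr2, Tppp, Sema5a and Chn2 are the 5 called lower and Anxa5 and Gjb1 the 2 called higher against all 4 controls, while Apod at the top is not. Over all genes tested 1.71% were called lower and 1.81% higher against all 4.

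Of the 32 OL maturation genes, 23 were tested, of which 19 rose (82.6%, beside 14.5% of all genes), none fell and 4 were not called. The median was 2.55. Without a minimum the median over all 32 was 1.74. Their summed level was 4160.3 and 3875 FPKM in siPdgfra, below every control library (4429 to 6257 FPKM), and 450.2 and 419 FPKM at Day0. The control medians of the 23 tested genes were 1.52 (non-treated), 1.73 (mock), 2.75 (NC siRNA #1) and 1.88 (NC siRNA #2). The minimum was set on Day0 and siPdgfra and left out genes high in the controls alone, so these medians do not rank siPdgfra among the groups. Of the 23, in the same order, 5, 5, 1 and 7 were called higher in siPdgfra (6.31%, 4.85%, 5.22% and 5.23% of all genes). Called lower were 1, 1, 5 and 2 (4.42%, 4.2%, 4.27% and 4.74%). Ptgds, the prostaglandin D2 synthase gene, had the largest rise of the named genes with 5.85 and 5.19 FPKM at Day0 and 1251 and 1033 FPKM in siPdgfra (log2 fold change 7.45 ± 0.21, limma, adjusted p = 2.62e-10). The septin gene Sept4 followed with 0.309 and 0.462 FPKM at Day0 and 114 and 145 FPKM in siPdgfra (log2 fold change 6.55 ± 0.14, limma, adjusted p = 6.24e-11). Sirt2, a deacetylase gene of myelinating cells, had 64.0 and 57.4 FPKM at Day0 and 1650.5 and 1596 FPKM in siPdgfra. Cryab, a small heat shock protein gene of mature OLs, had 0.267 and 0.113 FPKM at Day0 and 22.8 and 22.04 FPKM in siPdgfra. Apod, also a gene of mature OLs, had 2.72 and 2.84 FPKM at Day0 and 26.1 and 26.6 FPKM in siPdgfra, which was above the means of 0.968 to 2.47 FPKM in 3 control groups and close to the 23.6 FPKM of NC siRNA #1.

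Tppp, a tubulin-binding gene of OLs (chromosome 13, 74009419 to 74035753, plus strand, mm10), rose from 3.67 and 3.46 to 71.6 and 74.0 FPKM (log2 fold change 4.02 ± 0.09, limma, adjusted p = 6.50e-11) and stayed below all 8 control libraries, which ranged from 215 to 446 FPKM. The log2 difference from the mean of the controls was -2.15 ± 0.07 (limma, adjusted p = 5.78e-09). Anxa5, an annexin gene, had 0.312 and 0.181 FPKM at Day0 and 13.5 and 14.8 FPKM in siPdgfra and was higher than all 4 controls, whose means were 1.76 to 4.41 FPKM. Larp6, an RNA-binding protein gene that the study followed, rose to 4.13 and 4.38 FPKM (1.87 ± 0.17).

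The 9 maturation genes below the minimum were Aspa, Hapln2, Klk6, Ndrg1, Ppp1r14a, S1pr5, Evi2a, Alox5 and Sema4a. Of these, 2 were high in the controls and so fell out only because Day0 and siPdgfra were both low. Sema4a, a semaphorin gene, had 0.0934 and 0.0292 FPKM at Day0 and 0.199 and 0.213 FPKM in siPdgfra, and its control libraries ranged from 8.66 to 30.8 FPKM. Alox5, the 5-lipoxygenase gene, had 0.0671 and 0.0629 FPKM at Day0 and 0.975 and 0.407 FPKM in siPdgfra, and its control libraries ranged from 9.87 to 24.4 FPKM. The study listed both genes from libraries of this series, and also Sept4, Cryab and some other members of the lists used here. The place of these genes in the lists is therefore not independent.

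The genes of the committed, premyelinating stage rose, with a median below that of each control group. Of 13 tested, 10 rose (76.9%, beside 14.5% of all genes), none fell and 3 were not called. The median was 1.65 in siPdgfra and 2.68 (non-treated), 2.71 (mock), 1.82 (NC siRNA #1) and 2.37 (NC siRNA #2) in the controls. Enpp6, a phosphodiesterase gene of newly formed OLs, went from 0.660 and 0.609 to 115 and 106 FPKM (log2 fold change 6.09 ± 0.19, limma, adjusted p = 3.90e-10), beside control means of 183 to 409.6 FPKM, and was called lower than 2 controls. Gpr17, a receptor gene of committed cells, had 57.7 and 47.3 FPKM at Day0 and 178 and 156 FPKM in siPdgfra and control means of 174 to 211 FPKM, with no call against any of them. Bmp4 rose from 0.111 and 0.201 to 8.22 and 9.23 FPKM, and Cd82, a tetraspanin gene, from 3.02 and 2.95 to 104 and 104 FPKM.

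Among the 13 committed genes tested 3 were lower than all 4 controls, as were 1.71% of all genes. Itpr2, a calcium release channel of the endoplasmic reticulum (chromosome 6, 146108299 to 146502223, minus strand, mm10), had 2.46 and 2.49 FPKM at Day0 and 3.53 and 3.52 FPKM in siPdgfra, a log2 fold change of 0.38 ± 0.10 that was not called, while its control libraries ranged from 10.9 to 34.2 FPKM. The direct difference was -2.32 ± 0.08 (limma, adjusted p = 7.12e-09). Chn2, a regulator of small GTPases, had 14.9 and 14.2 FPKM at Day0 and 102 and 103 FPKM in siPdgfra beside control means of 239 to 401.1 FPKM. Sema5a, a semaphorin gene, had 1.30 and 1.31 FPKM at Day0 and 12.6 and 10.5 FPKM in siPdgfra beside 35.7 to 51.0 FPKM. Both were called higher than Day0. Fyn, a kinase of the premyelinating cell, had 145 and 145 FPKM at Day0 and 181 and 189 FPKM in siPdgfra. Nkx2-2 had 24.9 and 19.3 FPKM at Day0 and 30.1 and 27.3 FPKM in siPdgfra, and neither was called against Day0. Kif19a was below the minimum and Epb41l2 was not analysed here.

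**Figure D4:**
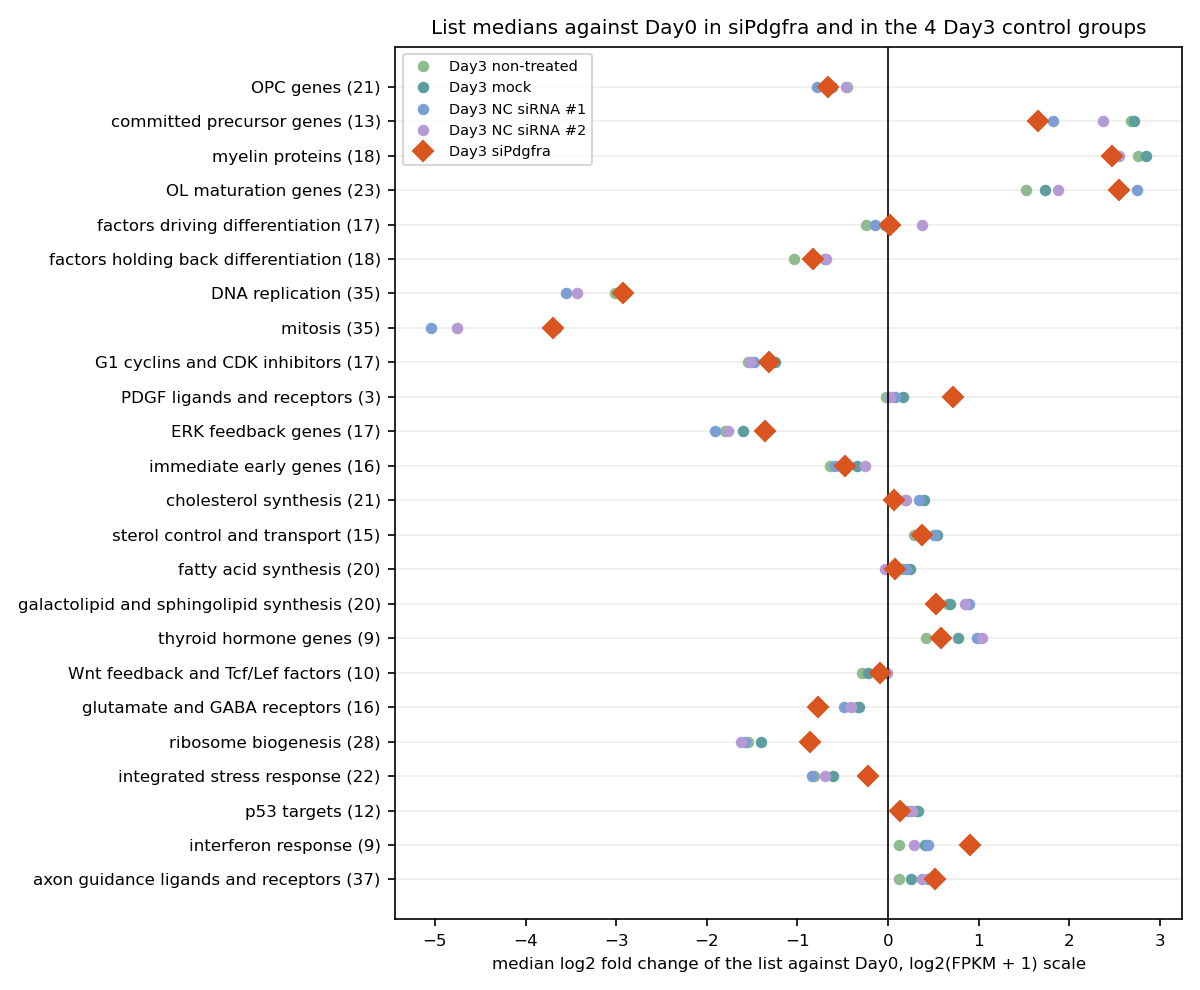
Median log2 fold change against Day0 of each gene list in siPdgfra and in the 4 Day3 control groups, which all share the Day0 libraries, over genes that passed the minimum in the Day0 and siPdgfra libraries. In siPdgfra the committed precursor median, 1.65, is the lowest of the 5 groups and the ribosome biogenesis median, -0.86, is the nearest to 0.

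Lipid genes did not move as a block. None of the 21 cholesterol synthesis genes was called against Day0, with log2 fold changes between -0.97 (Lbr) and 0.76 (Mvk) and a median of 0.07, which lay between -0.03 and 0.17 over 17 alternative settings. Of 15 tested genes of sterol control and transport, 3 rose (20%), near the 14.5% of all genes called higher, and none fell. The 3 were the cholesterol exporter gene Abca1 (0.385 and 0.511 FPKM at Day0 and 29.96 and 28.8 FPKM in siPdgfra, 4.39 ± 0.13) and the lysosomal carriers Npc1 (1.87 ± 0.08) and Npc2 (1.62 ± 0.13).

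Among 20 tested genes of fatty acid synthesis and elongation 5 rose (25%), 2 fell (10%) and 13 were not called, with a median of 0.08. Of all genes 14.5% were called in each direction. The 2 that fell were Acaca, the acetyl-CoA carboxylase (34.2 and 37.6 FPKM at Day0 and 11.5 and 11.8 FPKM in siPdgfra, -1.54 ± 0.10), and Elovl2 (-2.23 ± 0.10). Elovl7, an elongase, rose from 6.49 and 6.44 to 31.5 and 33.0 FPKM (log2 fold change 2.15 ± 0.13, limma, adjusted p = 8.37e-08) and remained below all 4 controls, whose means were 100.4 to 148 FPKM. Of 20 galactolipid and sphingolipid genes, 6 rose (30%, beside 14.5% of all genes) and none fell, with a median of 0.53. They included the enzymes that make and sulphate the main glycolipids of myelin, Ugt8a (60.7 and 60.6 FPKM at Day0 and 255 and 221 FPKM in siPdgfra, 1.95 ± 0.17), Fa2h (1.56 and 1.03 FPKM at Day0 and 47.8 and 41.0 FPKM in siPdgfra, 4.31 ± 0.16) and Gal3st1 (15.3 and 12.2 FPKM at Day0 and 65.2 and 54.5 FPKM in siPdgfra, 2.05 ± 0.26). Psap, the precursor of the saposins that help to break down sphingolipids, had 159.8 and 148 FPKM at Day0 and 181 and 178 FPKM in siPdgfra, was not called against Day0, and was lower than all 4 controls, whose means were 526 to 573 FPKM.

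Thyroid hormone is part of the differentiation medium in the study's methods, and 4 of the 9 thyroid hormone genes tested rose (44.4%), with none lower. Over all genes 14.5% were called in each direction. Klf9, a direct target of the hormone, had 5.23 and 5.57 FPKM at Day0 and 59.5 and 54.7 FPKM in siPdgfra (log2 fold change 3.18 ± 0.11, limma, adjusted p = 9.09e-10). Hr, another target, had 19.8 and 16.1 FPKM at Day0 and 81.5 and 69.4 FPKM in siPdgfra, and the receptor gene Thra had 17.5 and 18.3 FPKM at Day0 and 53.7 and 58.7 FPKM in siPdgfra. The fourth was the coactivator gene Ncoa1 (1.05 ± 0.11). Thra was called lower than 3 of the 4 controls, whose means were 108 to 134 FPKM. The other 9 of the 18 genes listed, among them the deiodinase genes Dio1, Dio2 and Dio3, were below the minimum.

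Ribosome biogenesis genes fell in part. Of 28 tested, 10 fell (35.7%, beside 14.5% of all genes), none rose and 18 were not called. The median was -0.86, beside medians of -1.54 (non-treated), -1.41 (mock), -1.57 (NC siRNA #1) and -1.62 (NC siRNA #2). In the control groups 23 to 27 of the 28 were called lower than Day0, where 15.8% (non-treated), 14.7% (mock), 16.8% (NC siRNA #1) and 15.3% (NC siRNA #2) of all genes were. Dkc1, the pseudouridine synthase of ribosomal RNA, had 49.1 and 54.9 FPKM at Day0 and 9.38 and 13.0 FPKM in siPdgfra (-2.13 ± 0.14). Fbl, its methyltransferase, had 155 and 164 FPKM at Day0 and 55.5 and 59.8 FPKM in siPdgfra (-1.45 ± 0.16). Npm1, nucleophosmin, had 841 and 1043 FPKM at Day0 and 328 and 438 FPKM in siPdgfra (-1.30 ± 0.16). Nolc1, a nucleolar protein gene, had 86.1 and 93.2 FPKM at Day0 and 48.9 and 55.5 FPKM in siPdgfra, was not called against Day0, and was called higher than 2 controls. No gene of the list was called against all 4 controls, where 3.52% of all genes were, so the lower control medians are a description of the list.

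The genes of the integrated stress response and of serine and amino acid supply went both ways. Of 22 tested, 6 fell (27.3%), 5 rose (22.7%) and 11 were not called, where 14.5% of all genes were called in each direction. The median was -0.22, beside -0.61 to -0.84 in the controls. The factor gene Atf4 had 103 and 95.4 FPKM at Day0 and 118 and 109 FPKM in siPdgfra and was not called. Against the controls 4 genes of the list were higher in all 4 tests, as were 1.81% of all genes. Chac1, which degrades glutathione, rose against Day0 (4.41 and 3.26 FPKM at Day0 and 10.3 and 10.5 FPKM in siPdgfra, log2 fold change 1.25 ± 0.16, limma, adjusted p = 3.95e-05) beside control means of 1.41 to 2.01 FPKM. Asns, asparagine synthetase, stayed near its Day0 level (65.0 and 61.1 FPKM at Day0 and 52.8 and 53.3 FPKM in siPdgfra) beside control means of 16.1 to 21.8 FPKM. Mthfd2, of mitochondrial folate metabolism (42.7 and 47.5 FPKM at Day0 and 18.6 and 20.1 FPKM in siPdgfra), and Slc7a5, a carrier of large amino acids (112 and 99.7 FPKM at Day0 and 27.6 and 24.2 FPKM in siPdgfra), fell against Day0, and their control means were 3.86 to 5.77 and 6.99 to 11.2 FPKM. Of 12 tested p53 targets 4 rose (33.3%) and 1 fell (8.33%), beside 14.5% of all genes in each direction, with a median of 0.13. Bbc3 (0.560 and 0.360 FPKM at Day0 and 9.65 and 8.20 FPKM in siPdgfra) and Cdkn1a were among those that rose. Mdm2 (31.5 and 33.9 FPKM at Day0 and 34.0 and 37.0 FPKM in siPdgfra) was not called. Of 9 tested interferon response genes 3 rose (33.3%) and 1 fell (11.1%). Ifi35 (0.163 and 0.131 FPKM at Day0 and 2.16 and 1.55 FPKM in siPdgfra) was higher than all 4 controls, whose means were 0.178 to 0.230 FPKM, while Isg15, Ifit1, Oas1a and Bst2 were below the minimum.

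Receptors and guidance genes of the lineage were mixed. Among 16 tested glutamate and GABA receptor genes, 5 fell (31.2%), 2 rose (12.5%) and 9 were not called, with a median of -0.78. Of all genes 14.5% were called in each direction. Grm5, a metabotropic glutamate receptor gene of precursors, fell from 18.2 and 18.1 to 2.34 and 2.18 FPKM (log2 fold change -2.55 ± 0.18, limma, adjusted p = 1.92e-07) and was lower than all 4 controls, whose means were 7.21 to 12.9 FPKM. The AMPA receptor gene Gria3 fell (23.9 and 26.9 FPKM at Day0 and 4.46 and 4.37 FPKM in siPdgfra), Gria2 was not called (55.2 and 60.9 FPKM at Day0 and 66.2 and 80.1 FPKM in siPdgfra), and Grm7 rose (0.0983 and 0.0957 FPKM at Day0 and 7.77 and 7.96 FPKM in siPdgfra). Of 37 tested axon guidance genes, 12 rose (32.4%), 5 fell (13.5%) and 20 were not called, with a median of 0.52. Sema3e (2.02 and 1.92 FPKM at Day0 and 12.4 and 13.2 FPKM in siPdgfra) and Epha3 (0.326 and 0.201 FPKM at Day0 and 2.96 and 2.77 FPKM in siPdgfra) rose and were higher than all 4 controls, and Ephb1 (2.83 and 2.33 FPKM at Day0 and 7.40 and 8.50 FPKM in siPdgfra) rose and was lower than all 4, whose means were 26.2 to 55.6 FPKM. Of 10 tested Wnt feedback and Tcf/Lef genes 2 rose (20%) and 2 fell (20%), near the 14.5% of all genes in each direction. Tcf7l1 rose from 4.40 and 2.77 to 32.7 and 32.1 FPKM, while Ctnnb1, which encodes beta-catenin, fell from 299 and 303 to 135 and 139.6 FPKM, and Axin2, a feedback target of the pathway, had 3.07 and 3.16 FPKM at Day0 and 2.37 and 2.46 FPKM in siPdgfra and was not called.

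Markers of other cells were checked for the whole lists. The 14 astrocyte markers summed to 183.6 and 166.6 FPKM at Day0, 192.8 and 190.5 FPKM in siPdgfra and 250.5 to 418.3 FPKM in the controls. Of 9 tested 3 rose (33.3%) and 4 fell (44.4%), where 14.5% of all genes were called in each direction. Gfap, the astrocyte filament gene, rose from 0.677 and 0.755 to 17.97 and 18.1 FPKM and was lower than all 4 controls (37.8 to 76.5 FPKM), as were Aldoc and Acsbg1, while Gjb6 was listed at 0 and Aqp4 and Gja1 were below the minimum. The neuron markers in the table summed to 66.1 and 63.5 FPKM at Day0 and 258.3 and 255.1 FPKM in siPdgfra, with 61.9 to 296 FPKM in the control libraries. Of 7 tested 1 rose (14.3%) and 2 fell (28.6%), with a median of -0.82. In the siPdgfra sum Tubb3 alone, a tubulin that developing cells also use, was 235 and 230.4 FPKM. Rbfox3 was at or under 0.117 FPKM and Slc17a6 was listed at 0 in all 4 libraries. The 12 microglia markers summed to 15.0 and 13.0 FPKM at Day0, 31.9 and 28.6 FPKM in siPdgfra and 21.4 to 28.7 FPKM in the controls. Among them Tmem119, Aif1, C1qa, C1qb and C1qc were listed at 0, and P2ry12 had 0.690 and 0.513 FPKM at Day0 and 7.57 and 6.57 FPKM in siPdgfra. Of 10 endothelial markers only Egfl7 passed the minimum and Cldn5 and Cdh5 were listed at 0, and none of 11 pericyte and fibroblast markers passed. The 8 Schwann cell markers, which include Sox10, summed to 212.8 and 172.9 FPKM at Day0, 289.2 and 241.1 FPKM in siPdgfra and 190.5 to 344.1 FPKM in the controls. Of 4 tested 1 rose (25%) and 2 fell (50%), with a median of -0.74. Pmp2 rose (0.162 and 0.0652 FPKM at Day0 and 32.1 and 31.7 FPKM in siPdgfra) and was higher than all 4 controls, while Egr2 (-2.86 ± 0.18) and Erbb3 (-2.07 ± 0.09) fell. The part of these markers in the results was not tested.

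By size alone, among genes with at least 10 FPKM in both libraries of the higher group, the 10 largest rises were those of Ptgds (7.45), Mbp (6.86), Sept4 (6.55), Enpp6 (6.09), Rasgef1b (5.69), Prickle1 (5.58), 9630013A20Rik (5.51), Hs3st1 (5.30), Mag (5.28) and Mog (5.13). Rasgef1b, a Ras exchange factor gene, had 1.39 and 1.62 FPKM at Day0 and 127 and 129 FPKM in siPdgfra. Prickle1, of planar cell polarity, had 1.502 and 1.70 FPKM at Day0 and 121 and 126 FPKM in siPdgfra. The non-coding RNA gene 9630013A20Rik had 5.08 and 3.61 FPKM at Day0 and 267 and 217 FPKM in siPdgfra, within the range of the control libraries, 91.1 to 276 FPKM. Hs3st1, a heparan sulphate sulphotransferase gene, had 0.657 and 0.528 FPKM at Day0 and 62.3 and 60.9 FPKM in siPdgfra and was above all its control libraries, 8.23 to 23.9 FPKM. The 10 largest falls were those of Pdgfra (-6.73), Egr1 (-6.14), Ankrd34c (-4.61), Pnlip (-4.60), Ccnb1 (-4.57), Spry4 (-4.45), Gsx1 (-4.41), Rrm2 (-4.40), Ube2c (-4.39) and Top2a (-4.37). Gsx1, a homeobox gene of ventral progenitors, had 78.2 and 55.2 FPKM at Day0 and 2.56 and 1.78 FPKM in siPdgfra. Pnlip, the pancreatic lipase gene, had 28.4 and 29.9 FPKM at Day0 and 0.189 and 0.303 FPKM in siPdgfra.

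Some genes changed against Day0 and also stood apart from every control, 258 in all, of which 183 had at least 10 FPKM in both libraries of a group. Of these, the 5 farthest above the controls were Slc44a5 (4.001 ± 0.11), Pkd2l1 (3.86 ± 0.08), Fam38b (3.21 ± 0.08), Ppapdc1b (3.13 ± 0.12) and Pmp2 (2.87 ± 0.11) on the log2 scale of siPdgfra minus the mean of the controls. Slc44a5, a choline transporter-like gene, had 2.64 and 2.56 FPKM at Day0 and 101.5 and 91.5 FPKM in siPdgfra while its control libraries ranged from 4.56 to 6.69 FPKM. Pkd2l1, a calcium channel gene, had 0.267 and 0.348 FPKM at Day0 and 21.1 and 20.7 FPKM in siPdgfra. Fam38b, the older symbol of the mechanosensitive channel gene Piezo2, had 0.212 and 0.232 FPKM at Day0 and 28.0 and 30.3 FPKM in siPdgfra. In these 5 genes the siPdgfra libraries lay above all 8 control libraries and both Day0 libraries.

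Among the 5 farthest below the controls were Pdgfra (-3.68 ± 0.08), Col20a1 (-2.46 ± 0.13), Kcnj12 (-2.42 ± 0.11) and Eif4g2 (-2.38 ± 0.11). Col20a1, a collagen gene, and Kcnj12, an inward rectifier potassium channel gene, rose against Day0 to 17.3 and 15.2 and 1.47 and 1.36 FPKM, and had control means of 74.8 to 112 and 9.77 to 13.4 FPKM. Eif4g2, a translation factor gene, differed from these in that its controls stayed high: it had 283 and 299.7 FPKM at Day0 and 43.4 and 40.0 FPKM in siPdgfra (log2 fold change -2.78 ± 0.13, limma, adjusted p = 1.00e-08), and its control libraries ranged from 195 to 271 FPKM.

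**Figure D5:**
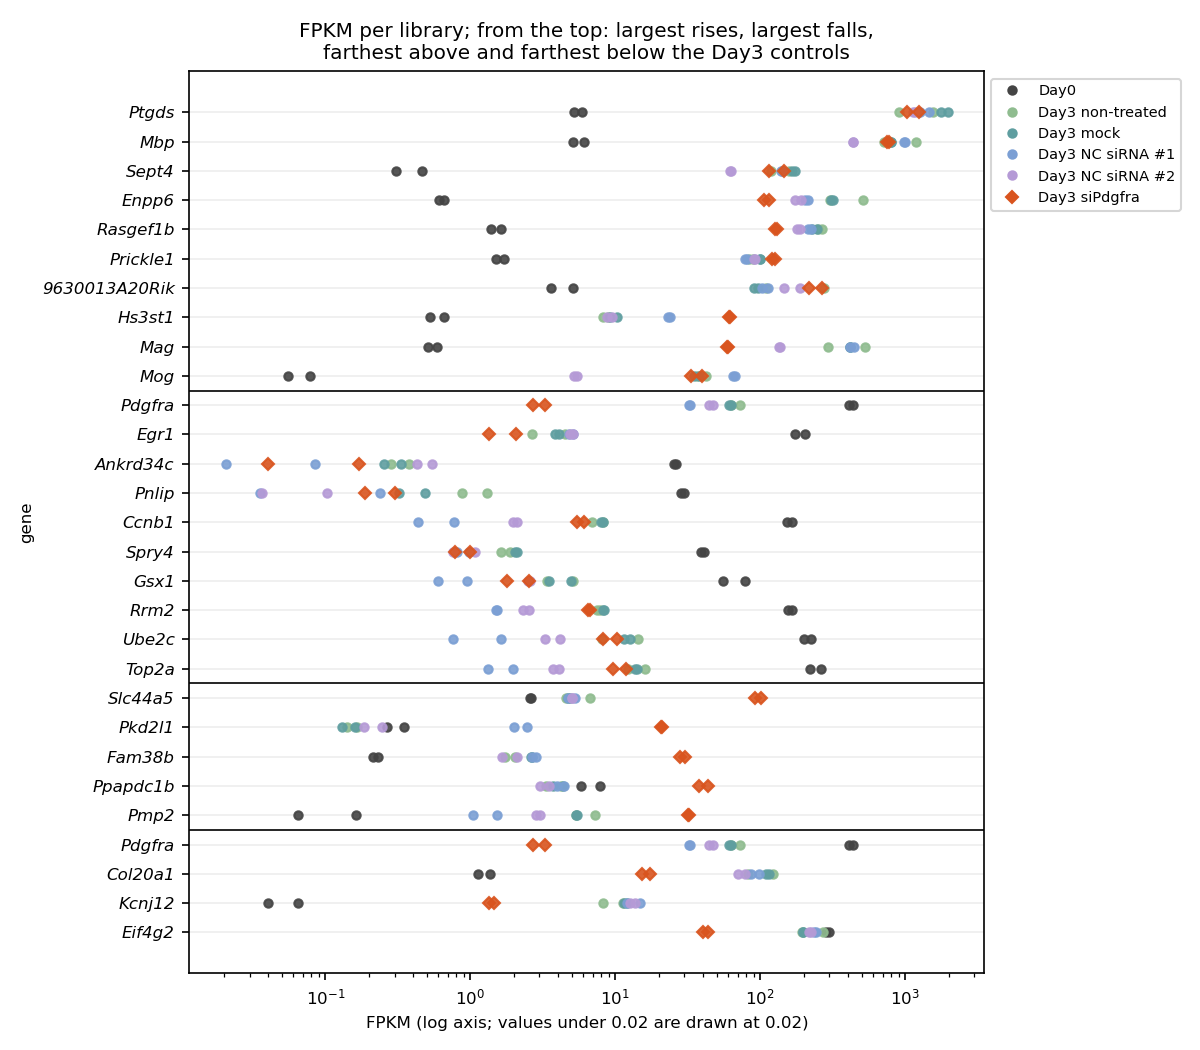
FPKM per library on a log axis for the genes named by size, in 4 blocks for the largest rises, the largest falls, and the genes farthest above and farthest below the Day3 controls, with Pdgfra in both the second and the fourth block. In the third block the siPdgfra diamonds lie to the right of every other library, and in the fourth they lie to the left of all control libraries.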

How the data were processed

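Strand-specific mRNA-seq libraries of cultured mouse cells were made and processed by the authors, who mapped the reads to mm10 with refGene gene models in ArrayStudio. The authors deposited 1 table of FPKM values per gene for all 14 libraries, and no further scaling is given in the sources used here. Their own comparison columns, which test siSbp2l against the 4 controls with DESeq2, were not used. The table holds FPKM and not counts, so log2(FPKM + 1) was fitted with limma 3.58.1 in R 4.3.3 (empirical Bayes with trend and robust settings), 1 mean for each of 7 groups over all 14 libraries, in place of a count test. The fit leaves 7 residual degrees of freedom. Groups came from the sample labels. Genes needed at least 1 FPKM in 2 or more of the 4 libraries compared, p-values were adjusted by Benjamini-Hochberg over all genes tested, and calls needed a 2-fold difference and an adjusted p under 0.05, the thresholds of the study. Genes were called against all controls when called in 1 direction in each of the 4 tests.

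Depth was recovered from low values, of which 92.9% to 93.7% were whole fragments within 0.1 in genes with a single transcript in these 4 libraries. A gene of 2 kb with a floor of 3 fragments would have 0.0474 to 0.0751 FPKM, which covers counting error only. With 2 libraries per group, p-values rest on a spread pooled over groups. The fit was run on simulated data with the same spread in every group, unlike the non-treated pair of these data. That run is no support for the calls. Besides Pdgfra, Secisbp2l and list members, the text names the 10 largest rises and falls with at least 10 FPKM in both libraries of the higher group, and the 5 genes farthest above and below the controls among those called against Day0 and all controls with at least 10 FPKM in both libraries of a group. The members, the 24 process lists and the 6 marker lists were chosen with earlier results of these data known. The 4 symbols of the lists Epb41l2, Zfp24, Ifi27 and Map2 were not analysed here. Results of some genes are not reported here. Promoters were matched by symbol to RefSeq sequences of GRCm38.p6. Alternatives covered the pseudocount, the minimum, scaling, the fold threshold, GC content and exon length, a replicate block, the libraries fitted and each library left out.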

Additional observations from a re-analysis of the deposited data

Results flagged for a closer look

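For 34 genes named in the text the change from Day0 to Day3 differed between siPdgfra and the controls, being called in 1 direction in the direct test against each of the 4 Day3 control groups. Of these, 17 were lower and 17 higher in siPdgfra, and the highest adjusted p over these genes and the 4 tests was 0.00114 (limma). Over all genes tested, 1.71% were called lower and 1.81% higher in this way. That split moved to 257 lower and 150 higher under median-ratio scaling. The 34 pool list members with genes picked for their distance from the controls, so the count describes the choice of genes. Values are log2 differences of siPdgfra minus the mean of the controls.

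Among OPC genes the difference was -3.68 for Pdgfra, the targeted gene, and -2.01 for Lhfpl3, which had a log2 change from Day0 of -0.67 in siPdgfra and 1.34 in the mean of the controls. The committed precursor genes held Itpr2 (-2.32), Sema5a (-1.77) and Chn2 (-1.65), and the myelin and maturation genes Mag (-2.38) and Tppp (-2.15) below the controls with Gjb1 (1.87) and Anxa5 (1.97) above them. Gjb1 changed from Day0 by 1.30 in siPdgfra and by -0.58 in the mean of the controls.

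Lipid genes lower in siPdgfra were Elovl7 (-1.84) and Psap (-1.60), and receptor and guidance genes were Grm5 (-1.77) and Ephb1 (-2.28) below and Sema3e (1.75) and Epha3 (1.48) above. The stress response genes Asns (1.42), Slc7a5 (1.49), Mthfd2 (1.80) and Chac1 (2.08), the ERK phosphatase gene Dusp5 (1.55) and the interferon gene Ifi35 (1.25) were all higher. Among markers of other cells the astrocyte genes Aldoc (-1.81), Acsbg1 (-1.55) and Gfap (-1.46) were lower and the neuronal gene Syt1 (1.64) and the Schwann cell gene Pmp2 (2.87) higher.

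Of the genes named by size, Col20a1 (-2.46), Kcnj12 (-2.42) and Eif4g2 (-2.38) lay below the controls, and Hs3st1 (2.31), Ppapdc1b (3.13), Fam38b (3.21), Pkd2l1 (3.86) and Slc44a5 (4.0) above them. The genes farthest from the controls had been chosen for that distance, so their values describe the choice.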

How the results depend on the processing

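A pair of settings moved most counts by over 1.5 times. With a pseudocount of 5, siPdgfra against Day0 had 1961 genes called (971 higher, 990 lower), the controls 1904 (non-treated), 1895 (mock), 2172 (NC siRNA #1) and 2032 (NC siRNA #2), and siPdgfra against the same controls 529, 430, 449 and 482, with 68 higher and 91 lower than all 4. With no fold threshold these were 7871 (3856 higher, 4015 lower), then 7660, 7560, 7859 and 7842, then 5927, 5095, 5552 and 5476, with 1590 higher and 1104 lower than all 4. Requiring at least 10 FPKM in 1 of the 4 libraries gave 810, 654 and 749 calls against non-treated, mock and NC siRNA #2, and 128 higher than all 4. A pseudocount of 0.1 gave 1633 calls against NC siRNA #1 and 304 lower than all 4. These settings change the fold scale, the fold rule or the genes tested by construction. Testing genes with at least 1 FPKM in 2 or more of the 14 libraries, chosen after the data were seen, gave 3292 calls against Day0, with 206 higher and 214 lower than all 4. The 504 genes it adds were under the minimum in Day0 and siPdgfra and entered through other groups, so the 20 more lower calls follow from that filter and describe no direction.

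Leaving out 1 library at a time gave 3228 to 3398 calls for siPdgfra against Day0 (1555 to 1751 higher, 1616 to 1696 lower), 3060 to 3350 for non-treated, 2985 to 3078 for mock, 3340 to 3428 for NC siRNA #1 and 3223 to 3345 for NC siRNA #2 against Day0. For siPdgfra against these controls the ranges were 1150 to 1807, 1023 to 1083, 1064 to 1145 and 1098 to 1187, with 192 to 216 higher and 174 to 199 lower than all 4. The 1807 came without non-treated replicate 1, whose partner was then alone in its group and was assumed to vary like the others. A fit without the non-treated pair gives no value against that group or against all 4.

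None of the called genes followed here changed direction, and genes named without a call were not followed. Of 260 genes called against Day0, 215 kept the call in all settings run and 45 lost it in at least 1, among them Wdr12, Phlda3, Shmt2, Trib3, Elovl1, Jund and Tecr when a library was left out. Of 32 genes called against all 4 controls and followed over up to 22 settings, Ifi35, Epha3, Dusp5, Itpr2, Grm5, Slc7a5 and Gjb1 lost that call at a pseudocount of 5 and 25 kept it in all settings run. Depth limits the genes near the floor of 0.0474 to 0.0751 FPKM, where a lower level was not detectable.

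The labels number the replicates 1 and 2 in every group, and nothing says that a number marks a shared culture. The correlation of the replicate differences of Day0 and siPdgfra was 0.43, and with only 2 numbers the samples share only a number. With the replicate number as a block 3290 genes were called against Day0 (1644 higher, 1646 lower), with 206 higher and 194 lower than all 4 controls.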
